A study of Mus musculus with 6 samples.

Results

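Complement is a cascade of plasma and tissue proteins that marks targets for removal, recruits leukocytes and can lyse membranes. The 9 genes described here encode components and regulators other than C1q: C1ra, C2, C3, C4b, Cfb, Cfp, Serping1, C3ar1 and C5ar1. They were chosen by gene symbol, with earlier results of these data known. All 9 were found among the 17891 named genes of the deposited gene tables. Shares of the 9 that are set against all tested genes below are therefore descriptions only. The tissue was myocardium of C57BL/6 mice aged 6 weeks, with RNA sequenced from 3 samples of wild type (WT) and 3 of NS-DADm animals. The NS-DADm animals have knock-in mutations, present in the whole body, in the deacetylase activating domains (DADs) of nuclear receptor corepressors, among them NCOR, encoded by Ncor1. Through these domains the corepressors switch on the histone deacetylase HDAC3. Because every tissue carries the knock-in, these data do not tell in which cells it acts. Whether each sample came from its own mouse is not stated in the labels, and the p-values cover only the variation among these samples. In GRCm38.p6, C3, C4b, C2 and Cfb are on chromosome 17, C1ra and C3ar1 on 6, C5ar1 on 7, Serping1 on 2 and Cfp on X.

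Separate routes start complement and meet at C3. The classical route runs from C1q through the proteases C1r and C1s to C4 and C2, the lectin route uses collectins or ficolins with MASP proteases, and the alternative route amplifies C3 cleavage with factor B, factor D and properdin. The small fragments C3a and C5a act on receptors of myeloid cells, while C1 inhibitor, factor H and membrane proteins hold the cascade in check. Liver makes most of the circulating proteins, and macrophages, fibroblasts and other tissue cells also make several of them.

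Total expected counts per library, which are the authors' estimated reads per gene, were 10183776 to 11205194 in WT and 12262491 to 12758270 in NS-DADm. Ncor1 was at 21.6 to 23.7 FPKM in WT and 23.1 to 24.9 FPKM in NS-DADm, and Hdac3 at 28.2 to 32.1 and 29.0 to 30.6 FPKM. These overlapping levels do not check the labels, since the knock-in alters the proteins. Ventricular muscle genes defined all 6 libraries, with Myl2 at 15371 to 21253 FPKM. FPKM is the count scaled to feature length and library size, so levels of different genes can be set side by side. Libraries differed in atrial transcripts: the summed FPKM of 7 atrial markers, Nppa the most abundant, was 4727, 3803 and 6647 in WT 3, NS-DADm 1 and NS-DADm 3, and 302.3 to 601.8 in WT 1, WT 2 and NS-DADm 2. The former are called atrial-rich and the latter atrial-poor below. The atrial-rich set held 1 WT and 2 NS-DADm libraries, and the atrial-poor set 2 WT and 1 NS-DADm. Ratios between groups within a set, or between sets within a group, thus have 1 library on one side and are descriptions only.

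Of the 9 genes 4 rose in NS-DADm myocardium: C3 and C4b about doubled, Cfp rose 2.48-fold and Serping1 1.31-fold. The other 5, C1ra, C2, Cfb, C3ar1 and C5ar1, did not pass the test, and 0 of the 9 fell. The test was the quasi-likelihood test of edgeR, with p-values adjusted by Benjamini-Hochberg over all 13130 tested genes, and an adjusted p under 0.05 counts as changed. For comparison, 3.2% of all tested genes were called: 1.79% rose, 235 genes, and 1.41% fell. All 9 genes passed the filter on low counts, C2 only through the NS-DADm libraries, as it reached the minimum in 1 WT library and in 3 NS-DADm libraries. The fold change was positive for all 9, against 49.3% of all tested genes. The sign of C2 was favoured by the way it passed the filter, and the other genes were positive as well. The median log2 fold change of the 9 genes, C2 included, was 0.59, against -0.003 for all tested genes.

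**Figure D1:**
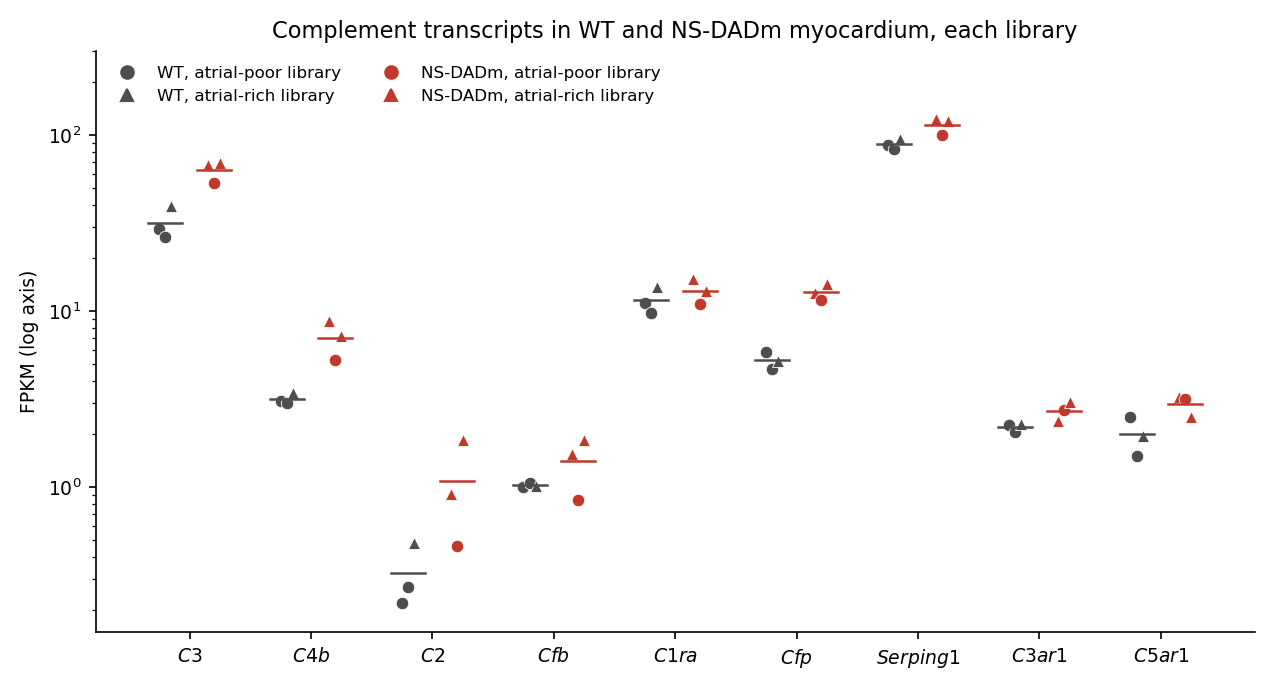
FPKM of the 9 complement genes in each library, on a log axis, with WT in grey and NS-DADm in red, circles for atrial-poor and triangles for atrial-rich libraries, and lines at group means. The NS-DADm points lie wholly above the WT points for C3, C4b, Cfp, Serping1 and C3ar1, while C2, Cfb, C1ra and C5ar1 overlap.

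C3 is the central component, cleaved in all 3 routes to C3a and to C3b, which attaches to surfaces. C3 (gene ID 12266) stood at 29.1, 26.2 and 39.2 FPKM in WT 1, 2 and 3 and at 67.7, 53.4 and 69.4 FPKM in NS-DADm 1, 2 and 3. The lowest NS-DADm library was above the highest WT library, and in each group the atrial-rich libraries were the higher ones. The group means were 31.5 ± 6.8 and 63.5 ± 8.8 FPKM (SD, n = 3), a 2.05-fold rise (95% interval 1.65 to 2.53, adjusted p = 0.00497, edgeR). Between the atrial-rich libraries alone the ratio of NS-DADm to WT was 1.75, with 1 WT library. Between the atrial-poor libraries alone it was 1.93, with 1 NS-DADm library. C3 was not called in the transcript tables, although its only listed transcript model holds the same counts (adjusted p = 0.132 over 17497 transcripts).

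C4b encodes C4, the substrate of C1s and MASP-2 whose larger fragment C4b binds C2. C4b (gene ID 12268) had 3.06, 3.0 and 3.43 FPKM in the WT libraries, which lay close together, and 8.73, 5.24 and 7.19 FPKM in the NS-DADm libraries. All NS-DADm values were above all WT values, with NS-DADm 2, the atrial-poor one, the lowest of them. The rise was 2.26-fold (95% interval 1.77 to 2.88, adjusted p = 0.00506, edgeR), with ratios of 2.32 among atrial-rich and 1.73 among atrial-poor libraries. The near-identical copy C4a was given 1.12 to 4.42 counts per library, against 163.9 to 579.9 for C4b. Reads shared by the copies may have been assigned to either, so the level of C4b alone is uncertain.

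Cfp encodes properdin, a protein made largely by myeloid cells that stabilises the alternative C3 convertase. Cfp (gene ID 18636) was at 5.82, 4.71 and 5.17 FPKM in WT and at 12.7, 11.5 and 14.2 FPKM in NS-DADm. Within each group the libraries lay close together, and the gap between the groups was wider than the range of either. The rise was 2.48-fold (95% interval 2.06 to 2.99, adjusted p = 4.94e-04, edgeR), with ratios of 2.60 among atrial-rich and 2.19 among atrial-poor libraries. In WT, the level of Cfp in the atrial-rich library lay between those of the atrial-poor ones.

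Serping1 encodes C1 inhibitor, a serpin that inactivates C1r, C1s and MASP proteases. Serping1 (gene ID 12258) was the most abundant of the 9 genes, at 87.5, 82.6 and 94.7 FPKM in WT and 122.6, 99.2 and 119.1 FPKM in NS-DADm. The groups did not overlap, though NS-DADm 2 was only slightly above WT 3. The rise was 1.31-fold (95% interval 1.15 to 1.49, adjusted p = 0.0350, edgeR), with ratios of 1.28 among atrial-rich and 1.17 among atrial-poor libraries. It was no longer called when WT 1, WT 2, NS-DADm 1 or NS-DADm 3 was left out (adjusted p of 0.116, 0.154, 0.123 and 0.0895 in that order). Under limma, with either log2(FPKM + 1) or log2(FPKM + 0.1), the adjusted p was 0.0885.

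Promoter sequences are shown for C3 and Cfp, the called genes that RefSeq's promoter table (build GRCm38.p6) holds; it also holds C1ra, C3ar1 and C5ar1. Each is the 250 bases before the annotated start, read 5′ to 3′ on the gene's strand, with motif matches in capitals. The C3 window is chr17:57228137-57228386 (minus strand) and the Cfp window chrX:20931556-20931805 (minus strand).
C3: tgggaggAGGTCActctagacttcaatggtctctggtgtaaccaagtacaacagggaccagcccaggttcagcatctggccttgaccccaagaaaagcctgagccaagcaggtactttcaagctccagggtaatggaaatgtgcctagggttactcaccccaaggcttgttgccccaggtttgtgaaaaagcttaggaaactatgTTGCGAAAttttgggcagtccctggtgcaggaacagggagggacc
Cfp: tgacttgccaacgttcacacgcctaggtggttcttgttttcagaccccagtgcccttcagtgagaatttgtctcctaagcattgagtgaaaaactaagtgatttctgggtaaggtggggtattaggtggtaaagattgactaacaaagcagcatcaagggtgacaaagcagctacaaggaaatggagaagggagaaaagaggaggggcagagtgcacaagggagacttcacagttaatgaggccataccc

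In the C3 window, a C/EBP-type match, TTGCGAAA for the motif TTGCNNAA, spanned bases 45 to 38 before the start. C/EBP factors drive many acute-phase genes. The hexamer AGGTCA, bound by many nuclear receptors, spanned bases 243 to 238 before the start. On both strands, TTGCNNAA occurred in 9.56% and AGGTCA in 14% of all 32851 promoter windows of this length. Motifs of NF-kB type, STAT type (TTCNNNGAA), interferon response type and PU.1 type (GAGGAAG), present in 1.21%, 7.02%, 2.98% and 10.6% of windows, had no match in the C3 window. Of these 6 motifs, 0 matched in the windows of Cfp, C1ra, C3ar1 and C5ar1.

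The proteases C1ra, C2 and Cfb did not pass the test. C2 (gene ID 12263), the protease cleaved by C1s to form the classical C3 convertase, was the least abundant of the 9 genes, with 6, 7 and 14 counts in WT and 29, 15 and 59 in NS-DADm. As FPKM these were 0.22, 0.27 and 0.48 in WT and 0.91, 0.46 and 1.86 in NS-DADm, so that NS-DADm 2 overlapped WT 3. The fold estimate was the largest of the 9, 3.32 (95% interval 1.47 to 7.48), and missed the threshold (adjusted p = 0.113, edgeR). C2 was called without NS-DADm 2 (adjusted p = 0.0474) and with DESeq2's Wald test (0.0405). Within the atrial sets its ratios of NS-DADm to WT were 2.89 (rich) and 1.88 (poor). Leaving out NS-DADm 3 lowered its log2 fold change from 1.73 to 1.09.

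Cfb encodes factor B, the protease of the alternative C3 convertase and a close relative of C2. Its gene is the neighbour of C2 among protein-coding genes of chromosome 17 in GRCm38.p6. Cfb (gene ID 14962) was at 1.0, 1.06 and 1.02 FPKM in WT and at 1.55, 0.84 and 1.84 FPKM in NS-DADm. The WT libraries were nearly equal, whereas the NS-DADm libraries lay on both sides of them (1.39-fold, 95% interval 0.899 to 2.16, adjusted p = 0.416, edgeR). As with C2, the atrial-rich libraries NS-DADm 1 and 3 were high and NS-DADm 2 was low: the NS-DADm to WT ratio of Cfb was 1.66 among atrial-rich and 0.816 among atrial-poor libraries.

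C1ra encodes C1r, the protease of the C1 complex that activates C1s. C1ra (gene ID 50909) stood at 11.04, 9.67 and 13.7 FPKM in WT and 15.1, 10.9 and 13.1 FPKM in NS-DADm, with groups that overlapped (1.15-fold, 95% interval 0.933 to 1.43, adjusted p = 0.475, edgeR). Levels followed the atrial sets in both genotypes, at 1.32 and 1.29 times as much in atrial-rich as in atrial-poor libraries of WT and NS-DADm. The ratio of NS-DADm to WT was 1.03 within the former libraries and 1.06 within the latter. On GRCm38.p6 the gene lies between C1rl and C1s1, and neither of these neighbours passed the test either: C1s1, its partner protease, had a log2 fold change of 0.06 (SE 0.08) and C1rl of -0.03 (SE 0.26). The part of atrial tissue in the levels of C2, Cfb and C1ra was not tested apart from a fit with an atrial score as a covariate. In that fit their log2 fold changes were 1.16, 0.26 and 0.06. C3, C4b, Cfp and Serping1 stayed called, with smaller log2 fold changes. These were 0.862, 1.015, 1.256 and 0.302 in that order, against 1.032, 1.174, 1.312 and 0.388 without the covariate. The atrial-rich set held 1 WT and 2 NS-DADm libraries, so this fit cannot fully tell atrial content and genotype apart.

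**Figure D2:**
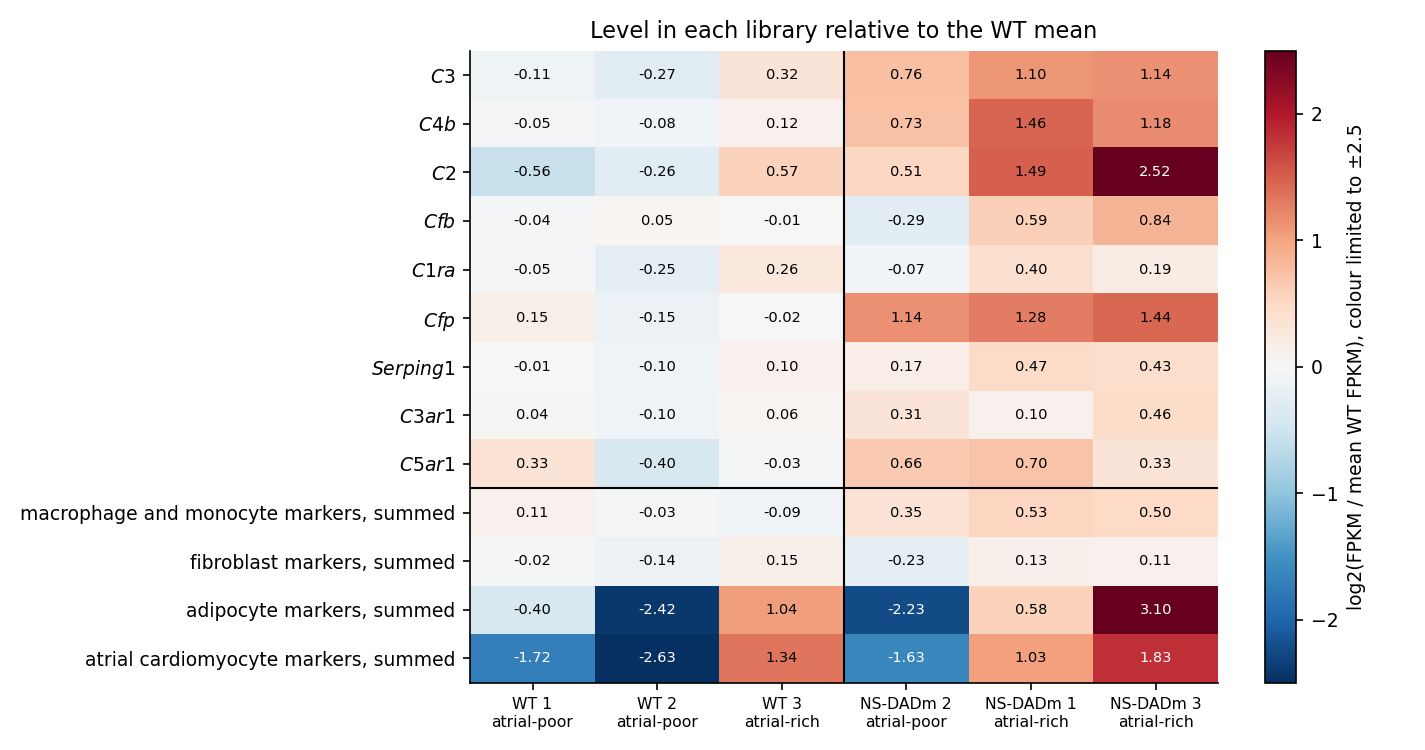
log2 ratio of each library's FPKM to the mean WT FPKM, for the 9 complement genes and, below the line, for the summed FPKM of 4 lists of cell type markers. Columns are libraries ordered by group and then by atrial set; C3, C4b and Cfp are raised in all 3 NS-DADm columns, while C2 and Cfb are highest in the atrial-rich NS-DADm columns.

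C3ar1 and C5ar1 encode the G protein-coupled receptors for C3a and C5a, carried mainly by myeloid cells. C3ar1 (gene ID 12267) was at 2.26, 2.06 and 2.29 FPKM in WT and at 2.36, 2.74 and 3.04 FPKM in NS-DADm. All NS-DADm values were the higher, by a narrow margin for NS-DADm 1 (1.25-fold, 95% interval 1.02 to 1.54, adjusted p = 0.241, edgeR). C5ar1 (gene ID 12273) was at 2.51, 1.51 and 1.95 FPKM in WT and at 3.24, 3.15 and 2.5 FPKM in NS-DADm. WT 1 was about level with NS-DADm 3, so the groups overlapped (1.51-fold, 95% interval 1.10 to 2.07, adjusted p = 0.156, edgeR). Among atrial-rich and atrial-poor libraries the ratios were 1.18 and 1.27 for C3ar1 and 1.47 and 1.57 for C5ar1. The unadjusted p was 0.0371 for C3ar1 and 0.0154 for C5ar1; 18.1% of all tested genes had an unadjusted p under 0.05. By FPKM, 5 of the 9 complement genes had groups that did not overlap, all with NS-DADm above, against 8.94% of all tested genes.

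In WT the order of levels was Serping1, C3, C1ra, Cfp, C4b, C3ar1, C5ar1, Cfb and C2, with means from 88.3 ± 6.1 FPKM for Serping1 to 0.323 ± 0.14 FPKM for C2 (SD, n = 3). Only the neighbours C3ar1 and C5ar1 had overlapping ranges in WT. In NS-DADm the mean of Cfp, 12.8 ± 1.3 FPKM, came level with that of C1ra, 13.0 ± 2.1 FPKM, and their ranges overlapped. C5ar1 stood above C3ar1 there, also with overlapping ranges, as did those of Cfb and C2.

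Of the 9 genes 7 were listed with 1 transcript model, and Cfb and C5ar1 with 2. All counts of Cfb went to one of its models in NS-DADm 3 and to the other in the remaining 5 libraries. For C5ar1, WT 2 had all 38 counts on the model that was at 0 in WT 1, WT 3, NS-DADm 1 and NS-DADm 2, and NS-DADm 3 was divided, 41.75 to 33.25. These all-or-none splits at low counts give no measure of isoform use. Of the 9 models tested, 0 were called by edgeR, where 0.0972% of all tested transcripts were called; 5 had an unadjusted p under 0.05, against 11.2% of all tested transcripts, among them the models of Cfp (adjusted p = 0.0591), C4b and C3.

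Macrophage and monocyte markers were also higher in NS-DADm. Of 17 tested markers 7 rose and 0 fell, 17 had a positive fold change, and their median log2 fold change was 0.49. Of all tested genes 1.79% rose, 1.41% fell and 49.3% had a positive fold change. The summed FPKM of all 18 markers ran from 208.7 to 239 in WT and from 283 to 320.1 in NS-DADm, with no overlap. Among these markers Csf1r, the receptor that macrophages need to survive, rose 1.36-fold and Ctss, a lysosomal protease, 2.32-fold, while Lyz2, the most abundant, was at 112 ± 15 and 138 ± 13 FPKM and did not pass. In bulk tissue, more cells of a type and more RNA per cell cannot be told apart. Of 66 tested markers in the 13 lists for other cell types, 0 were called by edgeR. An unadjusted p under 0.05 was found for 18 of these 66 markers, a larger share than the 18.1% of all tested genes. DESeq2's Wald test called 2, limma 1, the fit with the atrial score as a covariate 2, and leaving out 1 library gave 0 to 4. All 5 erythroid markers had a negative fold change and an unadjusted p under 0.05, and 1 of them had groups that did not overlap. Of 8 pericyte and smooth muscle markers, 5 had an unadjusted p under 0.05 and 2 had a positive fold change. By FPKM 4 of these 8 lay wholly below WT, against 14.5% of all tested genes. Fibroblast markers summed to 1192 to 1457 FPKM in WT and 1117 to 1439 FPKM in NS-DADm, with Gsn the most abundant. Of the liver markers, Ahsg, the most abundant, was at 5.12, 2.03 and 15.0 FPKM in WT and 13.6, 5.28 and 21.1 FPKM in NS-DADm. Its levels were highest in the atrial-rich libraries. Alb was at 0.88, 0.25 and 3.86 FPKM in WT and 1.04, 3.67 and 0.53 FPKM in NS-DADm. Alb did not follow the atrial sets, as it was high in NS-DADm 2 and low in NS-DADm 3. The part of liver transcripts in the levels of the complement genes was not tested.

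Levels were also set against those markers. Lyz2 was a large part of the sum, at 125.74 of 239 FPKM in WT 1 and 145.64 of 320.1 FPKM in NS-DADm 1. Per 1 FPKM of Csf1r instead, the groups did not overlap for C3, C4b and Cfp and overlapped for the other genes. Per 100 FPKM of summed markers, Cfp was at 2.44, 2.17 and 2.48 FPKM in WT and 3.97, 4.07 and 4.54 FPKM in NS-DADm, without overlap. C4b, at 1.44 ± 0.19 and 2.29 ± 0.44 (SD, n = 3), did not overlap either. C3, at 12.2, 12.1 and 18.8 against 21.2, 18.9 and 22.2, was separated by a narrow margin between WT 3 and NS-DADm 2. Serping1, at 40.0 ± 4.7 and 37.2 ± 1.8, C3ar1, at 0.997 ± 0.087 and 0.893 ± 0.13, and C5ar1, at 0.893 ± 0.18 and 0.975 ± 0.16, overlapped, as did C1ra, C2 and Cfb. These ratios are a description, with no test of the difference between genes. Whether macrophage content had any part in the rise of the complement genes was not tested.

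**Figure D3:**
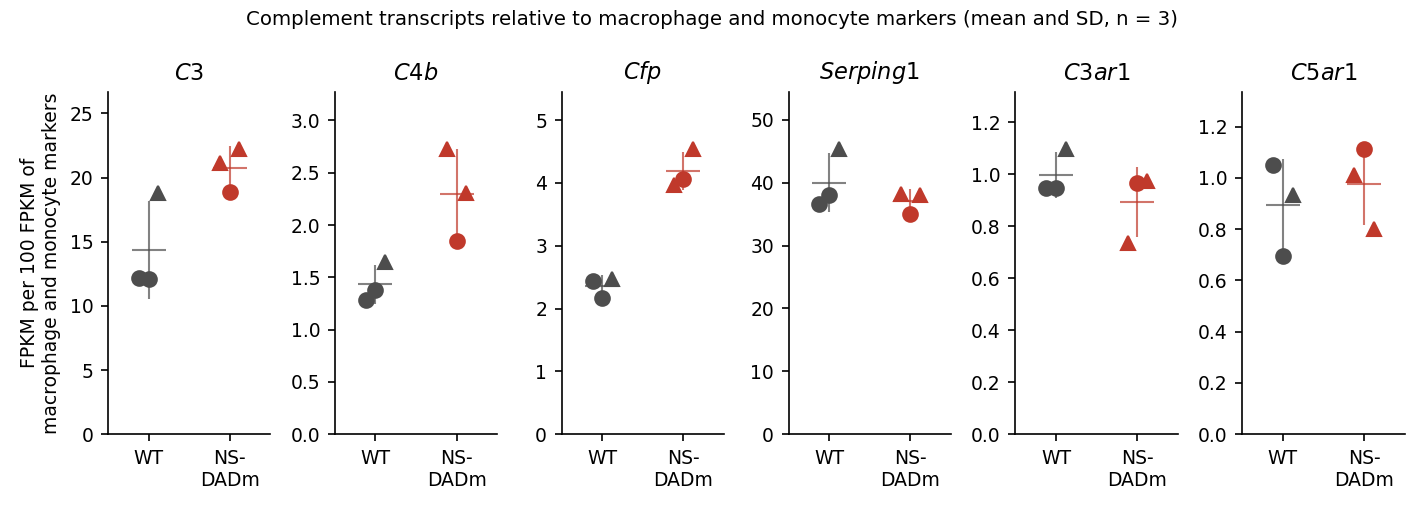
FPKM of 6 complement genes per 100 FPKM of summed macrophage and monocyte markers, by library, with group mean and SD (n = 3), and circles and triangles for atrial-poor and atrial-rich libraries. C3, C4b and Cfp stay higher in NS-DADm on this scale, while Serping1, C3ar1 and C5ar1 overlap between the groups.

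Elsewhere in the pathway, 6 genes rose and 1 fell among 27 tested, of 51 listed by role. Of all tested genes 1.79% rose and 1.41% fell. Without the C1q chains, 3 rose and 1 fell among 24 tested, and 15 had a positive fold change, against 49.3% of all tested genes. By FPKM 5 of these 24 lay wholly above WT and 5 wholly below, against 8.94% and 14.5% of all tested genes. The median log2 fold change of the 27 was 0.09. In the classical route, C1qa, C1qb and C1qc, the recognition chains of C1, rose 1.41-fold, 1.45-fold and 1.52-fold, with C1qa the most abundant at 60.3 ± 2.3 and 83.7 ± 3.9 FPKM (SD, n = 3). The call of C1qb ended without WT 2 (adjusted p = 0.0568). In the lectin route 1 of 4 tested genes rose and 0 fell. Fcna, a ficolin that binds sugars on microbes, rose 3.63-fold from 2.62, 1.82 and 1.28 FPKM to 7.75, 5.28 and 7.37 FPKM (adjusted p = 0.00569, edgeR), with WT 3 the lowest.

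By FPKM, 5 of the 27 other tested complement genes were lower in each NS-DADm library than in any WT library, as were 14.5% of all tested genes. These were Masp1, Colec11, Cr1l, Cd93 and Cpn2, and of them only Cpn2 passed the test. Masp1, a lectin route protease, had 75, 73 and 85 counts in WT and 21, 17 and 63 counts in NS-DADm (adjusted p = 0.0893, edgeR). Masp1 was chosen after its values were seen. It was called without NS-DADm 3, without a filter on low counts, with DESeq2's Wald test and with the atrial score as a covariate. Colec11, a collectin, was by the mean over all 6 libraries the most abundant gene of the lectin route list. It was at 17.3, 15.9 and 14.2 FPKM in WT and 11.01, 12.2 and 11.3 FPKM in NS-DADm (adjusted p = 0.0508, edgeR). Its call depended on the setting: 7 of 15 alternatives put it under the threshold, the fit without WT 3 among them (adjusted p = 0.0342).

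Cfd, encoding factor D, which cleaves factor B and is made chiefly by fat cells, varied more than any group difference, from 1.53, 1.85 and 51.5 FPKM in WT to 30.6, 4.86 and 156 FPKM in NS-DADm. The atrial-rich libraries held the 3 highest values, as they did for the fat cell marker Adipoq, at 8.02 in WT 3, 6.51 in NS-DADm 1 and 25.4 FPKM in NS-DADm 3 against 0.51 to 2.97 FPKM in the others. Cfd did not pass the test (adjusted p = 0.457, edgeR), and without NS-DADm 3 its log2 fold change went from 1.79 to -0.04. With the atrial score as a covariate its log2 fold change was 0.59 (adjusted p = 0.501, edgeR). The part of fat in the level of Cfd was not tested.

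Terminal components, which form the membrane attack complex, were scarce. C8g, the most abundant of them, was at 0.91 to 1.32 FPKM in WT and 1.65 to 2.42 FPKM in NS-DADm (adjusted p = 0.219, edgeR). C8a and C8b were listed in no library, and Hc, which encodes C5, had 1 count over all libraries. Clu, or clusterin, the most abundant of all complement genes listed, was at 486 ± 53 and 511 ± 122 FPKM (SD, n = 3). The membrane regulator Cd59a, which blocks the attack complex, was at 81.7 ± 6.8 and 81.6 ± 4.3 FPKM. Neither passed the test (adjusted p = 0.794 and 0.909, edgeR).

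Cpn2, a subunit of carboxypeptidase N, which trims C3a and C5a, was the only one of these 27 tested genes that fell. It had 33, 23 and 25 counts in WT and 2, 7 and 12 in NS-DADm (0.557 ± 0.11 and 0.127 ± 0.090 FPKM, adjusted p = 0.0331, edgeR). It passed the count filter through the WT libraries, with 1 NS-DADm library at the minimum. Cpn2 was no longer called when any 1 library other than NS-DADm 3 was left out (adjusted p 0.0525 to 0.122), nor under limma at pseudocounts of 1 and 0.1 (0.0539 and 0.0593). Of the complement receptors, Itgb2 and Itgam, the chains of complement receptor 3 on myeloid cells, rose 2.24-fold and 1.61-fold. Itgb2 was at 2.16, 2.46 and 1.97 FPKM in WT and 5.25, 4.54 and 4.72 FPKM in NS-DADm (adjusted p = 0.00236, edgeR). Itgam was not called without any 1 library other than NS-DADm 1 (adjusted p 0.0548 to 0.117), with limma on either scale (0.0647 and 0.0680) or at equal depth (0.0504). C1qbp, the most abundant of the receptor list, was at 137 ± 12 and 134 ± 11 FPKM.

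**Figure D4:**
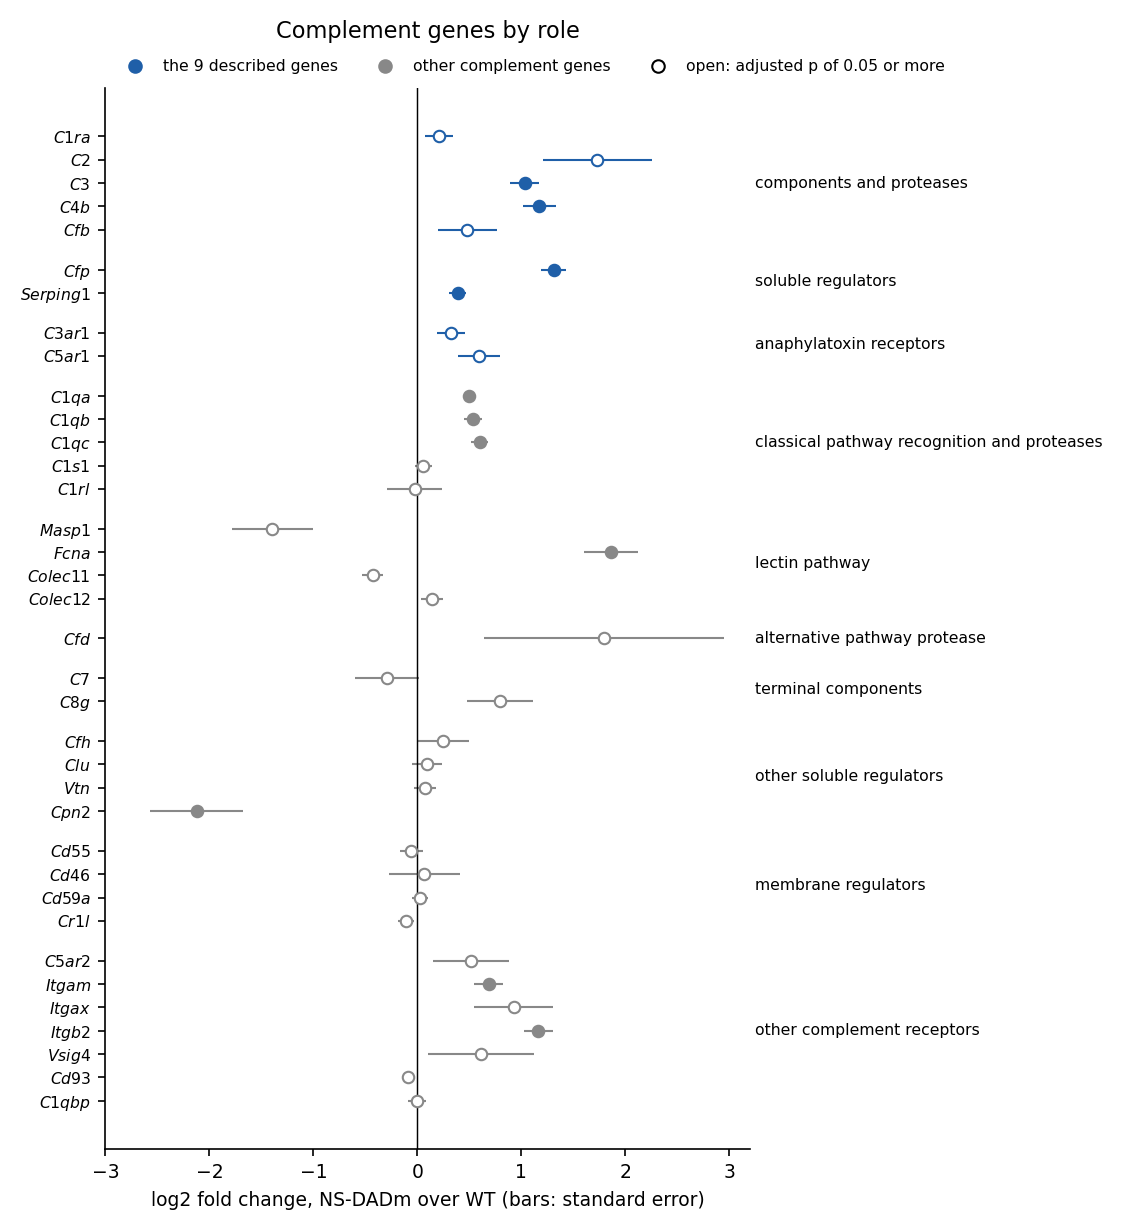
log2 fold change, NS-DADm over WT, with its standard error, for the 9 complement genes (blue) and the 27 other tested complement genes (grey), grouped by role; open circles did not pass the test. Filled circles right of 0 are C3, C4b, Cfp, Serping1, the C1q chains, Fcna, Itgam and Itgb2, and Cpn2 is the filled circle left of 0.

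Over the 6 libraries, many genes shared the pattern of each of the 8 complement genes with a mean of at least 1 FPKM. With 11117 genes compared, 93 to 292 genes had a Pearson correlation of at least 0.9 with each of them on log2(FPKM + 1), a scale on which 6 libraries from 2 groups share genotype and atrial content. For Cfp the most alike gene was Tbl1xr1, a subunit of the NCOR corepressor complex (r = 0.9975, n = 6), at 6.5 to 7.0 FPKM in WT and 11.5 to 13.0 FPKM in NS-DADm. For C3 it was Ctgf, a matrix signalling protein (r = 0.9950), which was at 35.1 to 60.6 FPKM in WT and 79.7 to 108.7 FPKM in NS-DADm. Krt80 was the most alike of C4b (0.9995), Cenpt of Serping1 (0.9991), Vcam1 of C1ra (0.9944), Lrrc42 of Cfb (0.9809), Lipa of C3ar1 (0.9957) and Ccm2 of C5ar1 (0.9868). These correlations are descriptions, with no p.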

How the data were processed

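RNA was sequenced from 6 myocardium samples, 3 per group. Each library had a gene and a transcript table, in which the authors deposited expected counts and FPKM, per the file headers. HISAT is listed in the submitters' processing notes, while the estimator, build and annotation were not given in the sources used here. Unlisted genes were taken as 0. The row without a symbol, at most 3.21e-04% of a library's counts, was left out.

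Expected counts were rounded to whole numbers, filtered with filterByExpr, scaled by TMM and tested with edgeR 4.0.16 in R 4.3.3 (quasi-likelihood, Benjamini-Hochberg over all features, threshold 0.05). Fold intervals (95%) came from the fold change, its standard error and the fit's degrees of freedom. With simulated counts over 13020 genes, edgeR called 54.8% of genes changed 1.5-fold, 91.2% at 2-fold and 100% at 4-fold. Of its calls, 8.99% were false. Over 16636 simulated transcripts it called 32.2% at 2-fold. How many features changed was fixed by choice and no atrial difference was simulated, so the share of false calls need not hold for the real data.

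The genes and lists described were chosen with earlier results of these data known. The lists, the alternatives and the rule for named genes were then fixed: the 9 genes, other complement genes that passed or led their role group, the most alike gene and the leading cell markers. Motifs and the atrial library sets were chosen later. Alternatives used DESeq2 1.42.0 and limma 3.58.1. No pair of libraries was a duplicate (chi-square per gene at least 3.37, about 1 for repeats). The level of 1 targeted gene is not reported here.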

Additional observations from a re-analysis of the deposited data

How the results depend on the processing

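Of the 9 complement genes, 4 were called; across 15 alternatives 3 to 5 were, with C3, C4b and Cfp called under each of them. Leaving out 1 library gave 3 to 5. The labels number samples alike in both groups but state no pairing, and same-numbered samples did not all deviate together (correlations -0.0725, 0.3277 and 0.4024; WT 1 was closest to NS-DADm 2, at 0.1981). With a replicate block 895 genes were called against 420, 5 of the 9 complement genes (C2 added, adjusted p = 0.0156) and 10 of the other complement genes against 7 (Cfd, adjusted p = 0.00297, Masp1 and Colec11 added), and 20 of 66 markers of other cell types against 0. Calls over all genes were 272 with limma on log2(FPKM + 1), 267 with log2(FPKM + 0.1), and 117 to 382 without 1 library (149, 117, 181 and 273 without WT 1, WT 2, NS-DADm 1 and NS-DADm 2). Other complement genes called numbered 4 to 7 without 1 library, 4 without WT 2. With transcripts of a mean FPKM of at least 1, the Cfp model was the 1 called, against 0 in every other transcript fit. Among 328 fits of 22 named genes, 282 kept direction and side of the threshold, 22 lost and 11 gained a call, and 13 changed sign, all in genes not called. Without 1 library, log2 fold changes ran from -0.040 to 5.25 for Cfd, -0.051 to 0.26 for Clu, -0.042 to 0.080 for Cd59a and -0.089 to 0.050 for C1qbp. With the atrial covariate Clu was at -0.092 and C1qbp at 0.097, C1qbp was at 2.5e-04 without a filter, and Cd59a was at -1.3e-04 and -1.1e-04 with limma on the larger and smaller pseudocount; the cause was not tested. Low counts limit the precision for C2 and Cpn2.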
